A study of Mus musculus with 6 samples.

Results

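Antiviral restriction factors are proteins with which a cell blocks a virus that has already reached it, and 8 genes of this kind were compared between the spleens of NOD.B10 and BL/10 females. They were chosen by name as Apobec3, Fv1, Samhd1, Bst2, Ifitm1, Ifitm2, Ifitm3 and Ifitm6, and all 8 were found among the 47729 genes of the count table and passed the filter on low counts that left 15330 genes for testing. NOD.B10 (NOD.B10Sn-H2b/J) is a strain with the NOD genome and the H2b haplotype that develops a disease like primary Sjögren's syndrome (pSS), and BL/10 (C57BL/10SnJ) is the healthy control strain. Each strain had 3 libraries of total spleen RNA, each from a separate mouse with no treatment, and the members lie on chromosomes other than that of H2.

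The strain of each library was read from its column name and description. The title and the strain field of all 6 samples name the other strain, and every direction below would be reversed under them. Ifi202b, a gene read as a strain marker, had between 485 and 838 counts in the libraries named NOD.B10 and between 0 and 2 in those named BL/10, and this was not used to assign them. The labels give an age of 26 weeks for the 3 NOD.B10 libraries and for BL/10 replicate 1 and of 36 weeks for BL/10 replicates 2 and 3, whereas the study's methods give 26 weeks. BL/10 replicate 1 also stood apart by its pancreas acinar genes, whose summed level over 13 genes was 13837 CPM (normalized counts scaled by TMM and by library size), whereas BL/10 replicates 2 and 3 had 2109 and 112 CPM and NOD.B10 had 22.1 to 31.7 CPM. Total counts ran from 16257041 to 17160323 for NOD.B10 libraries and from 15662712 to 18298451 for those of BL/10. The spleen's own cell types were present in all libraries, since 8 B cell markers summed to at least 2784 CPM and 10 T cell markers to at least 392 CPM.

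The members act at different steps of infection. APOBEC3 is a cytidine deaminase that is packaged into retroviral particles and edits their DNA copies, Fv1 is a domesticated retroviral gag gene whose product binds incoming murine leukemia virus capsids, SAMHD1 breaks down the deoxynucleotides that reverse transcription needs, and BST2 (tetherin) holds budding virions on the cell surface. IFITM proteins are small membrane proteins that hinder the fusion of viral and cellular membranes, and the Ifitm genes among the members lie close together on chromosome 7. Several of these genes are known to be induced by interferons, which act through response elements in promoters.

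Of the 8 genes, 3 differed between the strains when tested with edgeR (quasi-likelihood, adjusted p under 0.05). Apobec3 and Ifitm6 were lower and Ifitm1 was higher in NOD.B10, and no difference of the other 5 genes reached the threshold. Among all tested genes, 17.3% passed the same threshold, 8.22% of them lower and 9.11% higher in NOD.B10. For the same 3 members the libraries of the strains did not overlap, which was the case for 38.0% of all tested genes. The members' log2 fold changes had a median of -0.08, beside 0.00 over the whole table. With a library left out, 3 members were called without NOD.B10 replicate 1, 2 or 3 (8.12%, 12.9% and 8.95% of all genes) and without BL/10 replicate 2 or 3 (10.1% and 11.2%), and 4 without BL/10 replicate 1 (26.3%). With the replicate number as a block 3 were called, beside 18.8% of all genes, and DESeq2 also called 3, beside 16.8% of the genes it tested.

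**Figure D1:**
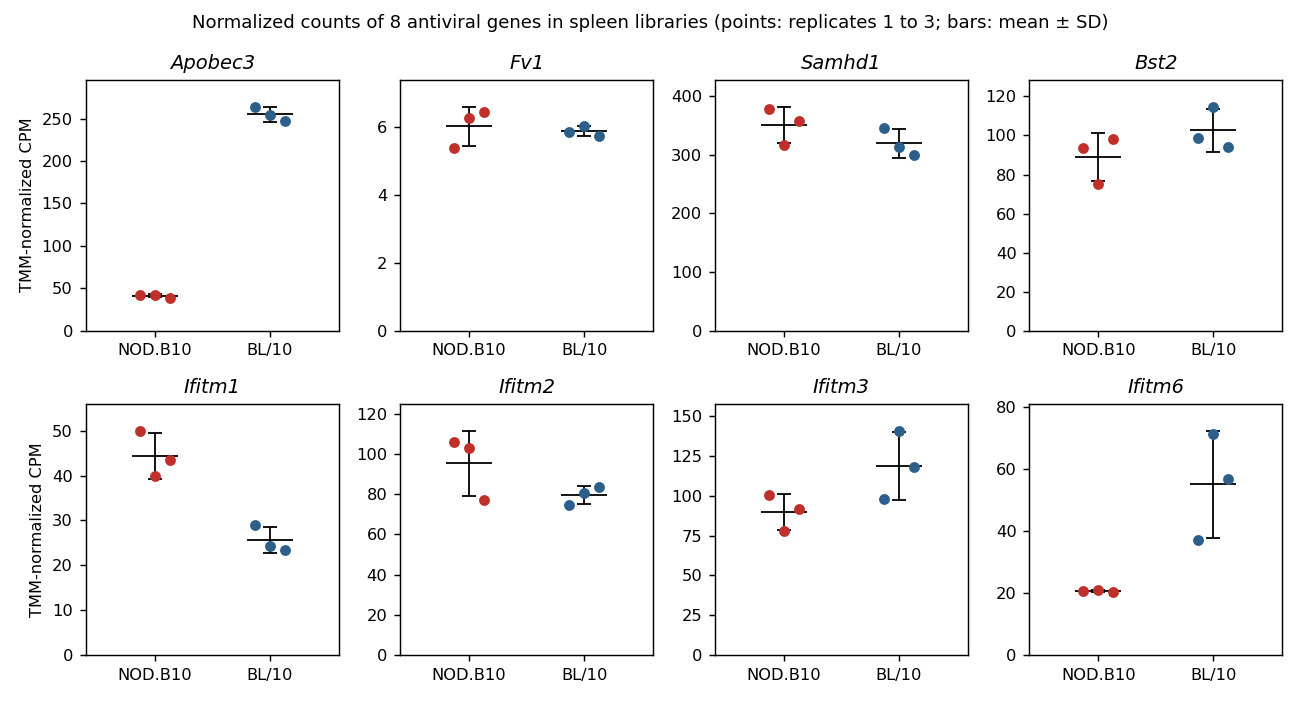
Normalized counts (CPM, TMM scaled, vertical axes, linear from 0) of the 8 genes in the 3 NOD.B10 (red) and 3 BL/10 (blue) libraries, with points for replicates 1 to 3 from left to right and bars for the mean ± SD. The strains separate for Apobec3, Ifitm1 and Ifitm6, and the points of the other 5 genes overlap.

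**Figure D2:**
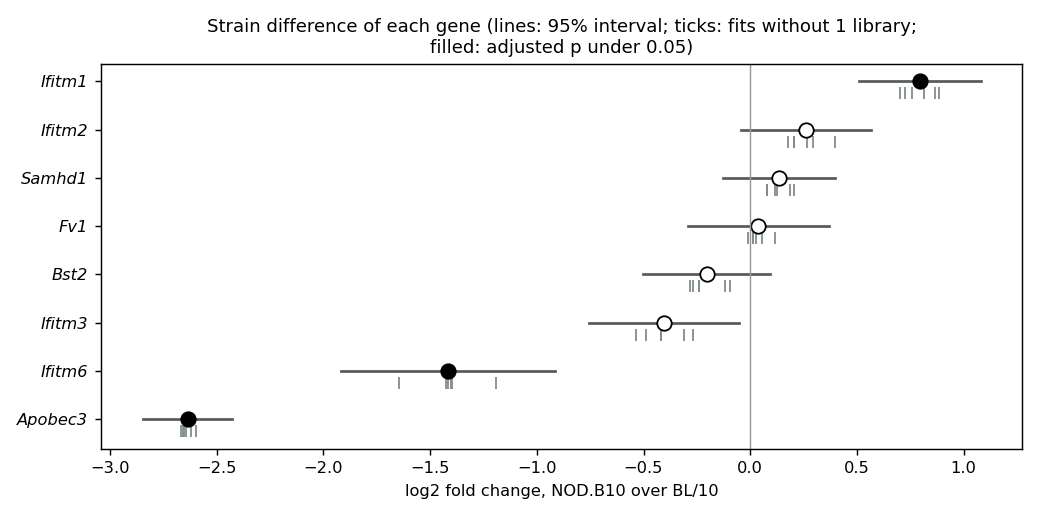
Log2 fold change of NOD.B10 over BL/10 (horizontal axis) for each gene from edgeR, with 95% intervals as lines, the 6 fits that each left out 1 library as ticks, and filled circles for an adjusted p under 0.05. Apobec3 (-2.64) stands far from the other genes, and Ifitm1 (0.79) and Ifitm6 (-1.42) lie on opposite sides of 0.

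Promoter sequences are shown because interferon acts through them and the members differed in opposite directions. All 8 members had an entry among the RefSeq promoters of GRCm38.p6, which run from 250 bases before to 50 bases after a gene's start. The RefSeq starts of Apobec3 and Ifitm1 lie inside the spans that the count table's annotation gives these genes. The core of the interferon-stimulated response element, searched on both strands as GAAA, any 2 bases and GAAA, with overlaps allowed, was found for 4 of the 8 members and for 3.99% of all 27025 genes in the table. In the stretches below, given on the strand of each gene from 5′ to 3′, capitals mark the matches.
Apobec3, chr15:79892248-79892307, with the match on the opposite strand: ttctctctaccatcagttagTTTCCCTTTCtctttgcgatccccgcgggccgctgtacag
Bst2, chr8:71537573-71537632, with 2 overlapping matches: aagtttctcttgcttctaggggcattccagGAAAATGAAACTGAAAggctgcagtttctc
Ifitm2, chr7:140955962-140956061: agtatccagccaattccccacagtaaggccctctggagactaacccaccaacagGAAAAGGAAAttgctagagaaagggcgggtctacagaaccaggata
Ifitm3, chr7:141010715-141010744, the first 30 bases from the start, with 2 matches: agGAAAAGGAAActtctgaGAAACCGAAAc
Ifitm1, chr7:140967976-140968075: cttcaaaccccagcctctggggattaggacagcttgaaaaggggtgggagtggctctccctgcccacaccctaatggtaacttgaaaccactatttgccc
Ifitm6, chr7:141016893-141016992: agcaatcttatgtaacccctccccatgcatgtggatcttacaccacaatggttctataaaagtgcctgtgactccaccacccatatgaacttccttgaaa

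The Ifitm1 and Ifitm6 stretches, the last 100 bases before the start, hold no match, and neither did the rest of their windows. The genes with a match had log2 fold changes from -2.64 (Apobec3) to 0.26 (Ifitm2), and those without it from -1.42 (Ifitm6) to 0.79 (Ifitm1). Of the members called, Apobec3 has a match and Ifitm1 and Ifitm6 have none. The STAT site, searched as TTCNNNGAA, was found for Samhd1, Bst2, Ifitm3 and Ifitm6, and for 9.55% of all genes in the table. The sequences are those of the C57BL/6J reference and hold no NOD variants.

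Apobec3 (ENSMUSG00000009585, chromosome 15 from 79891659 to 79915906 of GRCm38, plus strand) had by far the most different level of the 8. Its normalized count was 42.2, 41.9 and 38.9 CPM in NOD.B10 replicates 1, 2 and 3, and 264, 254 and 247 CPM in BL/10 replicates 1, 2 and 3. All BL/10 libraries were far above all NOD.B10 libraries, and the replicates of each strain lay close together, with a coefficient of variation of 4.52% in NOD.B10 and 3.38% in BL/10. The medians over all tested genes were 9.62% and 12.9%. The means were 41.0 ± 1.85 CPM (SD, n = 3) and 255 ± 8.62 CPM (SD, n = 3), so that the gene was 6.22-fold lower in NOD.B10, a log2 fold change of -2.64 with a standard error of 0.09 and a 95% interval from -2.85 to -2.43. Its adjusted p in edgeR was 6.83e-06, and its p ranked 8 among the 15330 genes. The match in its promoter stretch lies 140 bases before the start.

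Among the other polynucleotide deaminases, no gene was called lower with all libraries. Of 6 listed genes, 5 were tested, and Apobec1, the editing enzyme of apolipoprotein B mRNA, and Adarb1, an adenosine deaminase of RNA, were higher in NOD.B10, with log2 fold changes of 0.44 and 0.68 (adjusted p = 0.0254 and 0.0462 in edgeR). Among all tested genes, 9.11% were called higher. The calls of Apobec1 and Adarb1 were lost without NOD.B10 replicate 1 or 3 (8.12% and 8.95% of all genes) or BL/10 replicate 2 or 3 (10.1% and 11.2%). Without NOD.B10 replicate 2 (12.9%) the count was 1. Without BL/10 replicate 1 (26.3%) it was 4, of which 3 were higher and 1 lower. Adar had a log2 fold change of -0.25 (adjusted p = 0.131 in edgeR) and Apobec2, with under 2 CPM in every library, one of -0.58 (adjusted p = 0.361 in edgeR). Apobec4 had at most 1 count in each library and was not tested.

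On chromosome 15, 15 tested genes started within 250 kb of Apobec3. Of these, 4 passed the threshold, all lower in NOD.B10, beside 17.3% of all tested genes that passed and 8.22% that were lower. The 4 neighbors were Syngr1 (log2 fold change -1.25), Cbx7 (-0.82), Cbx6 (-0.65) and Josd1 (-0.53), each a smaller difference than that of Apobec3. Cbx7 lies on the opposite strand, and 100 bases, or 1.64%, of the annotated exon bases of Apobec3 overlap it. Reads in this stretch were counted for neither gene. Of the 50-base windows in the annotated Apobec3 transcripts, 8.84% also occur in transcripts of other genes and could be lost to multiple mapping, but none of them occur in another member. The table sums reads over all exons of a gene, so isoforms of Apobec3 were not compared.

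The 3 tested genes whose centered log2 profiles over the 6 libraries were nearest to that of Apobec3 were 4930481A15Rik, Trim12c and Gvin1, at Euclidean distances of 0.22, 0.29 and 0.34. Trim12c, from the mouse counterpart of the Trim5 cluster of restriction factors, had 74.4 CPM in BL/10 on average and a log2 fold change of -2.76. Gvin1, of the very large interferon-inducible GTPases, had no counts in NOD.B10 and 2.11 CPM in BL/10. For 4930481A15Rik the means were 0.20 CPM in NOD.B10 and 3.85 CPM in BL/10, a log2 fold change of -4.24. At such low levels the 0.5 CPM added before the logarithm shrinks a difference. The nearness of Gvin1 and 4930481A15Rik to Apobec3 therefore does not show an equal fold. All 3 genes are named by likeness alone, over 14218 genes with a mean of at least 1 CPM, and the 2 strain levels set most of that likeness.

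Fv1 (ENSMUSG00000070583, chromosome 4 from 147868979 to 147870358, plus strand) was read at a low and even level. Its normalized count was 5.38, 6.26 and 6.46 CPM in NOD.B10 and 5.87, 6.04 and 5.74 CPM in BL/10. The values of both strains overlapped, and the log2 fold change was 0.04 with a 95% interval from -0.29 to 0.37 (adjusted p = 0.874 in edgeR). Strains of mice carry different Fv1 alleles, and counts per gene do not tell alleles apart. The genes around Fv1 were less even, as 7 of 12 tested neighbors within 250 kb passed the threshold, beside 17.3% of all tested genes. Of the 7 neighbors called, 5 were lower and the other 2 higher in NOD.B10. Among the called neighbors were Draxin (log2 fold change -1.55) and Agtrap (-0.92) on the lower side and Clcn6 (0.66) on the higher side, and Miip, the nearest gene upstream, had -0.47.

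Samhd1 (ENSMUSG00000027639, chromosome 2 from 157097533 to 157135265, minus strand) was the most counted member. It had 379, 317 and 357 CPM in NOD.B10 and 346, 313 and 299 CPM in BL/10. The ranges overlapped, and the log2 fold change of 0.13 had a 95% interval from -0.13 to 0.40 (adjusted p = 0.435 in edgeR), whose upper end is a 1.32-fold higher level in NOD.B10. SAMHD1 works against the enzymes that make deoxynucleotides. Of 12 genes for their synthesis and salvage 2 passed the threshold, both lower in NOD.B10, which is near the 17.3% of all tested genes that passed. Rrm2, the small subunit of ribonucleotide reductase that is made in dividing cells, had 132, 177 and 122 CPM in NOD.B10 and 200, 412 and 342 CPM in BL/10, a log2 fold change of -1.15 (adjusted p = 0.025 in edgeR). Dtymk, thymidylate kinase, had a log2 fold change of -0.62 (adjusted p = 0.0181 in edgeR). Rrm2b, the reductase subunit of resting cells, had 0.04 (adjusted p = 0.888 in edgeR). The median over the 12 genes was -0.41. The count of 2 was 0 without NOD.B10 replicate 1, NOD.B10 replicate 3 or BL/10 replicate 2 (8.12%, 8.95% and 10.1% of all genes). It was 1 without BL/10 replicate 3 (11.2%) and 5 without BL/10 replicate 1 (26.3%).

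Bst2 (ENSMUSG00000046718, chromosome 8 from 71534264 to 71537437, minus strand) had 93.7, 75.0 and 98.4 CPM in NOD.B10 and 98.7, 115 and 94.2 CPM in BL/10. The strains overlapped, and the log2 fold change was -0.20 with a 95% interval from -0.50 to 0.09 (adjusted p = 0.297 in edgeR). BST2 is also a surface antigen of plasmacytoid dendritic cells. Of 6 other markers of these cells, 1 passed the threshold, beside 17.3% of all tested genes. This marker was Ly6d (log2 fold change -1.80), which B cells use too. Siglech, their defining lectin, had a log2 fold change of -0.45 (adjusted p = 0.0717 in edgeR). The whole list summed to 210 to 283 CPM in NOD.B10 and 479 to 935 CPM in BL/10. In BL/10, Ly6d and, in replicate 1, Klk1 made up most of it. BL/10 replicate 1 also had the most pancreas acinar reads (13837 CPM), and their part in the Klk1 counts was not tested. The sum cannot be read as a level of plasmacytoid dendritic cells alone, and the part of these cells in the Bst2 values was not tested. In whole spleen, fewer cells of a type and less RNA per cell cannot be told apart.

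The 4 Ifitm members lie close together on chromosome 7, with Ifitm2 first (140954839 to 140955961, minus strand), then Ifitm1 (140967221 to 140969825, plus strand), Ifitm3 (141009586 to 141010770, minus strand) and Ifitm6 (141015812 to 141016892, minus strand). Although they are neighbors, they differed between the strains in opposite directions. Ifitm1 was higher in NOD.B10, Ifitm6 was lower, and Ifitm2 and Ifitm3 did not reach the threshold, although Ifitm3 lies between them.

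Ifitm1 (ENSMUSG00000025491), whose protein acts mainly at the cell surface, had 49.9, 39.9 and 43.4 CPM in NOD.B10 and 28.9, 24.3 and 23.5 CPM in BL/10. Every NOD.B10 library was above every BL/10 library. The means were 44.4 ± 5.09 CPM (SD, n = 3) and 25.6 ± 2.94 CPM (SD, n = 3), a 1.73-fold higher level in NOD.B10 (log2 fold change 0.79, standard error 0.12, adjusted p = 0.00487 in edgeR). With the libraries labelled 26 weeks alone, 3 against 1, the log2 fold change was 0.62 and the adjusted p in edgeR was 0.0819.

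Ifitm6 (ENSMUSG00000059108), a family member of mice that is known from myeloid cells, had 20.6, 20.9 and 20.3 CPM in NOD.B10 and 37.0, 71.4 and 56.9 CPM in BL/10. The NOD.B10 libraries were almost equal, with a coefficient of variation of 1.46%, and the BL/10 libraries spread widely (31.3%) but lay above all of them. With 345, 340 and 361 raw counts in NOD.B10, counting error alone is larger than 1.46%. The closeness of these 3 values therefore does not show an even level between mice. The means were 20.6 ± 0.300 CPM (SD, n = 3) and 55.1 ± 17.2 CPM (SD, n = 3), so that Ifitm6 was 2.67-fold lower in NOD.B10 (log2 fold change -1.42, standard error 0.22, adjusted p = 0.00463 in edgeR). Of the tested genes, Cmpk2, a mitochondrial nucleotide kinase induced by interferon, had the nearest profile over the 6 libraries, at a distance of 0.16, with 29.8 CPM in NOD.B10 and 86.5 CPM in BL/10 on average.

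Neutrophil genes moved in the same direction as Ifitm6. Of 13 neutrophil markers, 12 passed the threshold, all lower in NOD.B10, beside 8.22% of all tested genes that were lower. The log2 fold changes of the list had a median of -1.87. Cxcr2 was the one not called (0.58, adjusted p = 0.106 in edgeR). The summed level of the neutrophil markers was 2295 to 2638 CPM in NOD.B10 and 6419, 13395 and 11806 CPM in BL/10 replicates 1, 2 and 3. This is the same order of the BL/10 libraries as for Ifitm6, but it was not particular to neutrophil genes. The summed monocyte markers (1119, 1696 and 1447 CPM) and the 16 interferon-induced genes described below (826, 1211 and 991 CPM) had it too. Of 7 markers of classical monocytes, the other cells in which Ifitm6 is known, 2 passed the threshold. These were Ly6c2 (log2 fold change -3.98) and Chil3 (-1.72, a gene that immature neutrophils also express), whereas Ccr2 had 0.18 and Csf1r -0.08. No gene of the neutrophil or monocyte list was at or under 3 counts in all libraries of a strain. The part of these cells in the Ifitm6 result was not tested.

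T cell and plasma cell genes moved in the same direction as Ifitm1. Among all tested genes, 17.3% were called in either direction and 9.11% were called higher, and for 38.0% the strains did not overlap. Of 10 T cell markers, 8 passed the threshold and were higher in NOD.B10, the median over the list was 1.25 on the log2 scale, and the summed level was 796 to 1053 CPM in NOD.B10 and 392 to 510 CPM in BL/10. Cd8a (log2 fold change 0.16) and Cd8b1 (-0.40), the chains of the co-receptor of cytotoxic T cells, were the T cell markers not called. Of 7 plasma cell markers 6 were called, all higher in NOD.B10, with a median of 0.64 and a summed level of 3345 to 3849 CPM in NOD.B10 and 2118 to 2695 CPM in BL/10. The B cell list had no called gene and a median of 0.33, with 7 of its 8 genes overlapping between the strains. For 6 NK cell markers 1 gene was higher and 1 lower, and for 7 stromal and endothelial markers, cells that also make Ifitm proteins, 1 was higher (Pecam1, log2 fold change 0.59). The part of these cell types in the Ifitm1 result was not tested.

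**Figure D3:**
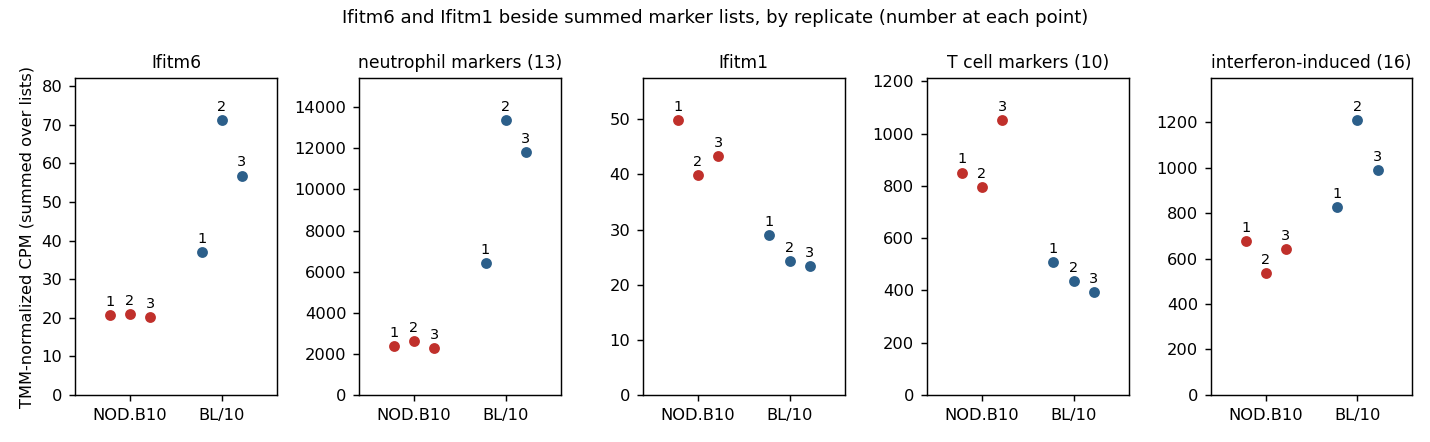
TMM-normalized CPM by library for Ifitm6, 13 summed neutrophil markers, Ifitm1, 10 summed T cell markers and 16 summed interferon-induced genes (vertical axes linear from 0, numbers give the replicate, NOD.B10 in red and BL/10 in blue). In every panel BL/10 replicate 1 is the BL/10 library nearest to NOD.B10, and Ifitm1 and the T cell markers are higher in all NOD.B10 libraries.

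Ifitm3 (ENSMUSG00000025492), which acts on viruses taken up into endosomes, had 100.2, 77.7 and 91.4 CPM in NOD.B10 and 97.9, 141 and 118 CPM in BL/10. NOD.B10 replicate 1 lay above BL/10 replicate 1, so the strains overlapped, and the log2 fold change of -0.40 (95% interval from -0.76 to -0.05) had an adjusted p of 0.105 in edgeR. Without BL/10 replicate 1 it was -0.54 with an adjusted p of 0.0214 in edgeR. Ifitm2 (ENSMUSG00000060591), its close paralog, had 106, 103 and 76.9 CPM in NOD.B10 and 74.5, 80.6 and 83.6 CPM in BL/10. NOD.B10 replicates 1 and 2 lay above all BL/10 libraries and replicate 3 lay among them, and the log2 fold change of 0.26 (95% interval from -0.05 to 0.57) had an adjusted p of 0.203 in edgeR.

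The make-up of the Ifitm counts was also compared between the strains. The 4 genes summed to 250 ± 23.7 CPM (SD, n = 3) in the NOD.B10 libraries and to 279 ± 39.4 CPM (SD, n = 3) in those of BL/10, and the ranges overlapped (two-sided exact permutation test, p = 0.3). Ifitm6 gave 8.28% ± 0.721 (SD, n = 3) of the Ifitm counts in NOD.B10 and 19.4% ± 3.55 (SD, n = 3) in BL/10. Ifitm1 gave 17.8% ± 1.11 (SD, n = 3) and 9.38% ± 2.41 (SD, n = 3). Ifitm2 gave 38.0% ± 4.76 (SD, n = 3) and 28.8% ± 3.01 (SD, n = 3), and Ifitm3 gave 35.9% ± 3.62 (SD, n = 3) and 42.4% ± 1.73 (SD, n = 3). The shares of a library sum to the whole, so they are not independent of each other. For each of the 4 genes the two-sided exact permutation test gave the same p (0.1, the smallest that 3 against 3 can give).

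Sequence that is shared with other genes was most frequent for Ifitm2 among the 8 members. Of its 50-base transcript windows, 48.5% also occur in transcripts of 7 other genes, which are Ifitm3 (20 of 606 windows) and 6 genes named as Gm models. The share was 10.0% for Ifitm3 and 5.02% for Ifitm1, whereas no window of Ifitm6, Bst2 or Fv1 was shared. Reads that map to several places were left out of the counts, so the level of Ifitm2 may be understated, but lost reads were not measured.

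The rest of the family and the neighborhood were compared in the same way. Ifitm10 had between 3.19 and 4.16 CPM in all libraries and a log2 fold change of -0.08, and Ifitm5 and Ifitm7 had at most 5 counts in each library and were not tested. Of 20 tested genes that start within 250 kb of Ifitm1, 2 passed the threshold, beside 17.3% of all tested genes. The 2 neighbors were Ifitm6 itself and Sigirr, an inhibitory receptor of the interleukin-1 receptor family (log2 fold change 0.56, adjusted p = 0.0302 in edgeR). Within 250 kb of Ifitm6, Irf7, the interferon regulatory factor that drives type I interferon, was lower (-1.27, adjusted p = 0.0155 in edgeR).

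**Figure D4:**
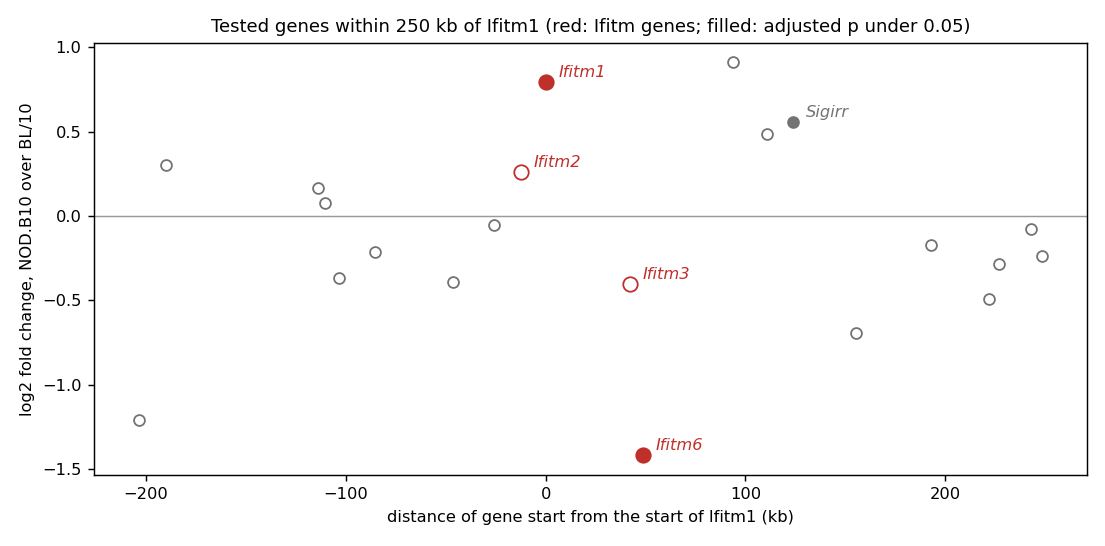
Log2 fold change of NOD.B10 over BL/10 (vertical axis) for the tested genes that start within 250 kb of Ifitm1, by the distance of their starts in kb (horizontal axis), with the 4 Ifitm members in red and filled circles for an adjusted p under 0.05 in edgeR. Ifitm6 (-1.42) is the lowest gene of the region, Ifitm1 (0.79) is lower than the uncalled B4galnt4 (0.91) alone, and Sigirr (0.56) is the other filled circle.

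Between genes, levels were compared per kilobase of gene length. In BL/10 the order was Ifitm3 (175 CPM per kb), Bst2 (134), Ifitm2 (127), Ifitm6 (102), Apobec3 (41.9), Samhd1 (34.9), Ifitm1 (23.4) and Fv1 (4.26). The libraries of the first 4 neighbors in this order overlapped, and those from Ifitm6 downward did not overlap with the next. In NOD.B10, Ifitm2 (152), Ifitm3 (132) and Bst2 (117) overlapped in turn, and Ifitm1 (40.6), Samhd1 (38.3) and Ifitm6 (38.1) formed a second overlapping group. Apobec3 was next to last in NOD.B10, with 6.74 CPM per kb, close to Fv1 with 4.37 but not overlapping it. Apobec3 was thus above Samhd1 and Ifitm1 in every BL/10 library and below both in every NOD.B10 library.

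A part of the other genes that restrict viruses was lower in NOD.B10. Of 24 such genes, all tested, 8 passed the threshold in edgeR and all 8 were lower, beside 8.22% of all tested genes that were lower. The list had a median of -0.29 on the log2 scale. The 8 were the double-stranded RNA sensors Oas1a (-1.71), Oas2 (-1.59) and Oas3 (-2.20), the kinase Eif2ak2 that halts translation (-1.16), Ifit1, which binds foreign RNA caps (-1.19), Mx1 (-0.87), the RIG-I ubiquitin ligase Trim25 (-0.42) and Serinc5, which lowers the infectivity of retroviruses (-0.50).

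Apobec3 and Oas3 had the largest folds among these 32 genes. Oas3 had 19.9, 13.9 and 14.2 CPM in NOD.B10 and 38.2, 107 and 75.3 CPM in BL/10, and it spread between BL/10 libraries as Apobec3 did not. Eif2ak2 had 34.9, 31.8 and 30.9 CPM in NOD.B10 and 60.5, 89.3 and 69.0 CPM in BL/10. BL/10 replicate 1 was the lowest BL/10 library for both genes but above all NOD.B10 libraries. The genes that did not pass included Zc3hav1, the zinc finger antiviral protein (log2 fold change -0.22), Mov10, an RNA helicase (-0.03), Serinc3 (-0.04) and Shfl (0.41, adjusted p = 0.104 in edgeR), the highest of the list. Rsad2 (-1.13, adjusted p = 0.0958 in edgeR) and March8 (-0.82, adjusted p = 0.0998 in edgeR) did not pass either. Their differences were larger than that of Trim25 (-0.42), and their BL/10 libraries spread widely. Of the 24 genes, 19 had a log2 fold change below 0 and 5 above. The count of 8 became 5 without NOD.B10 replicate 1, NOD.B10 replicate 3 or BL/10 replicate 3 (8.12%, 8.95% and 11.2% of all genes). It was 4 without BL/10 replicate 2 (10.1%) and 13 without BL/10 replicate 1 (26.3%). In these fits all called genes of the list were lower. Without NOD.B10 replicate 2 (12.9%) the count was 7, 1 of them higher.

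**Figure D5:**
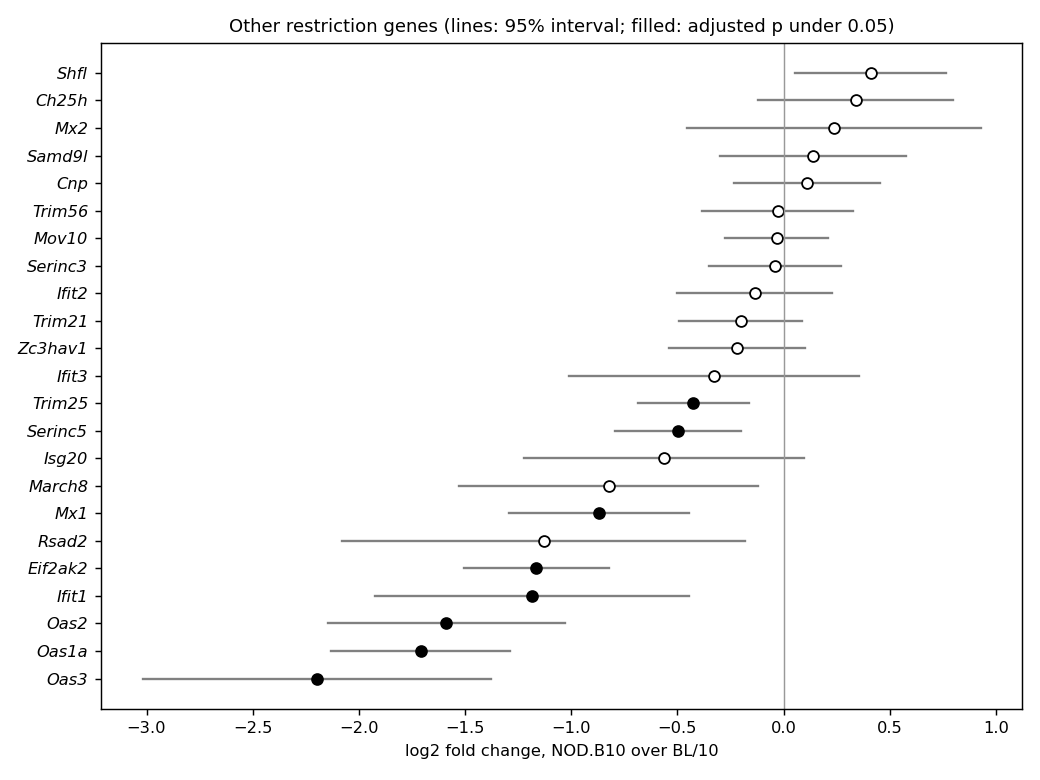
Log2 fold change of NOD.B10 over BL/10 (horizontal axis) for other restriction genes, with 95% intervals as lines and filled circles for an adjusted p under 0.05 in edgeR. The filled circles, from Oas3 (-2.20) to Trim25 (-0.42), all lie below 0.

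The interferon-induced genes outside these lists went the same way. Of 16 genes, 9 passed the threshold and all 9 were lower in NOD.B10, beside 8.22% of all tested genes that were lower. The list had a median of -0.82. Isg15, a ubiquitin-like modifier, had the largest fold (38.5 to 57 CPM in NOD.B10 and 79.8, 234 and 213 CPM in BL/10 replicates 1, 2 and 3, log2 fold change -1.89, adjusted p = 0.0137 in edgeR). Oasl1 (-1.60), Ifi44 (-1.58), Cmpk2 (-1.54) and Ifih1, the sensor MDA5 (-1.09), were also lower, whereas Zbp1 (0.15), Ddx58, the sensor RIG-I (-0.03), and Parp14 (-0.09) did not reach the threshold. Not all uncalled genes lay near 0. Of the 16 genes, 15 had a log2 fold change below 0 and 1 above, beside 7652 below among the 15330 tested genes. The strains did not overlap for 12 of the 16, beside 38.0% of all tested genes. The count of 9 was 5 without NOD.B10 replicate 1 or BL/10 replicate 2 (8.12% and 10.1% of all genes). It was 4 without NOD.B10 replicate 3 (8.95%) and 11 without BL/10 replicate 1 (26.3%).

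The genes that carry the interferon signal were called in both directions. Of 12 genes, 3 passed the threshold, beside 17.3% of all tested genes, and the median log2 fold change was 0.10. Irf7 (-1.27) and Irf9, the DNA-binding subunit of the factor ISGF3 (-0.43), were lower, and Irf1 was higher (0.42, adjusted p = 0.039 in edgeR). Differences for the receptor subunits Ifnar1 (0.08) and Ifnar2 (-0.0028) and for Stat2 (0.16) and Tyk2 (0.01) did not reach the threshold. The count of 3 fell to 0 without NOD.B10 replicate 3 or BL/10 replicate 3 (8.95% and 11.2% of all genes). It fell to 1 without NOD.B10 replicate 1 or BL/10 replicate 2 (8.12% and 10.1%).

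Within the 2 ages in the labels the comparison could be made for 26 weeks only, since no NOD.B10 library is labelled 36 weeks. With the 3 NOD.B10 libraries against BL/10 replicate 1, a lone sample taken to vary like the others, Apobec3 had a log2 fold change of -2.69 and Ifitm6 one of -0.85, and both kept an adjusted p under 0.05 in edgeR, which 6.19% of all genes passed in this fit. Ifitm3 had -0.13 and Ifitm2 0.36. In BL/10, the age in the labels, the pancreas reads and the differences between mice cannot be told apart.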

How the data were processed

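Per the file headers, reads were counted by the authors with featureCounts version 1.5.1 on exons of Ensembl 84 (GRCm38), without strand and without reads that map to several places, and the deposited values are raw counts per gene. The deposited gene lengths are a value of the annotation. HISAT2 version 2.0.5 is named in the submitters' processing notes and Tophat2 in the methods, so the aligner is uncertain. NOD alleles were read against the C57BL/6J reference, and lost reads were not tested. Symbols came from GENCODE M21 (47224 of 47729 matched).

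Counts were filtered with filterByExpr, scaled by TMM and tested with the quasi-likelihood test of edgeR version 4.0.16 (R version 4.3.3), as NOD.B10 over BL/10, and p-values were adjusted by Benjamini-Hochberg over all tested genes. Standard errors came from the fold change and F statistic, and 95% intervals from the t quantiles of the fit. Procedures were tested on simulated data. A count of 3, the floor of detection, was 0.164 to 0.192 CPM and covers counting error only. Alternatives were DESeq2 version 1.42.0, RLE size factors, other filters, hemoglobin and immunoglobulin genes left out, a replicate block, each library left out, and, chosen after seeing the data, libraries labelled 26 weeks.

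Members and lists were chosen with earlier results of these data known. Named genes are the members, the listed genes, called neighbors within 250 kb, and per member the 3 genes with the smallest Euclidean distance of centered log2(CPM + 0.5), of which those of Apobec3 and the nearest of Ifitm6 are given. Neutrophil, monocyte, plasmacytoid dendritic, B, T, plasma, NK, stromal and pancreas acinar markers are described with the results. Of the other lists, red pulp macrophage markers had 1 higher and 2 lower of 7 and erythroid markers 1 lower of 8. Among all tested genes, 9.11% were higher and 8.22% lower. Shfl was matched by its RefSeq synonym and Ahsp was not matched. A few listed genes enter the counts of their lists but are not reported here by name.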

Additional observations from a re-analysis of the deposited data

How the results depend on the processing

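All 13 alternatives kept Apobec3 (log2 fold change between -2.69 and -2.60) and Ifitm6 (between -1.65 and -0.85) past the threshold, and 12 kept Ifitm1, the exception being the libraries labelled 26 weeks (0.62, adjusted p = 0.0819 in edgeR). None moved Fv1, Samhd1, Bst2 or Ifitm2 past it, and Ifitm3 passed without BL/10 replicate 1 alone (-0.54). Fv1 was between -0.0098 and 0.12 when each library was left out and changed sign without NOD.B10 replicate 3. Between 2 and 4 members were called over all alternatives, and 3 or 4 when each library was left out. The other restriction genes called were between 4 and 13 when each library was left out, against 8, and 3 with the libraries labelled 26 weeks. The lists other than these were recomputed only with each library left out. The cause of these changes was not tested, and a fit with a library left out also holds fewer libraries. DESeq2 called 16.8% of its 19189 genes. No outlier test was made with 3 libraries a strain.

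Same-numbered libraries did not deviate together (correlations over genes of 0.03, 0.17 and -0.08 for replicates 1, 2 and 3), and with the replicate block 3 members and 7 other restriction genes were called, with Apobec3 at -2.64, Ifitm1 at 0.80 and Ifitm6 at -1.37. At this depth each member had at least 90 counts in every library. For Fv1, with at most 115, counting error is a large part of the interval.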
